A study of Mus musculus with 7 samples.

Results

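The members are the microRNAs of the miR-297, miR-466, miR-467 and miR-669 families, taken as every name on the array that begins with one of these numbers followed by a letter, a hyphen or the end of the name. There were 61 such names among 1881 on the array, 3 of miR-297, 23 of miR-466, 12 of miR-467 and 23 of miR-669. By arm of the hairpin, 25 were 5p, 26 were 3p and 10 had no arm in the name. The array carried 162 probes for them, with 30 replicate spots a member.

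RNA came from CD4+ T cells purified from draining lymph nodes of 2 mouse models of heart injury, with 1 array a sample. In the EAM group, a model of myocarditis, 4 samples were labelled day 6 after induction. In the LAD group, a model of myocardial infarction, 3 samples were labelled day 3, whereas the series' design text has the 2 days exchanged. Cells were selected on beads with an antibody to CD4, and no strain, age or allele is given in the labels used here. No cells of healthy mice were measured, and model, day and column of the slide changed together, so their parts in a difference cannot be told apart. The labels do not say that samples of a group came from separate animals, so p-values measure the spread between these samples.

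MicroRNAs are cut from hairpins, and either strand, named 5p or 3p, can be loaded into an Argonaute protein and guide it to messenger RNAs through the seed near its 5′ end. Most hairpins of these families lie in a tandem array within an intron of Sfmbt2, a Polycomb group gene that is imprinted in mouse and known for its expression in placenta, and many of their mature sequences hold repeats of alternating bases. Members of 1 family differ by few bases, so a probe can also bind RNA of a near-identical copy.

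The name of the Sfmbt2 cluster held for most members but not for all. RefSeq's GRCm38.p6 annotation has 81 genes named Mir297, Mir466, Mir467 or Mir669, of which 71 lie within Sfmbt2 and 10 outside it. Of the 61 members, 50 had all their genes within Sfmbt2. Another 8 had theirs elsewhere, namely miR-466i-3p, miR-466i-5p, miR-466j, miR-466k, miR-466q, miR-467f, miR-467g and miR-669n. The other 3, miR-297a-3p, miR-466f-3p and miR-466f-5p, had genes in both places. The array design gives mm9 positions for 32 members, and 31 of them had at least 1 site on chromosome 2 between 10388918 and 10438764, where the design lists 78 sites in all. For example, miR-467e-5p is placed at 10427362 to 10427379 and miR-467e-3p at 10427397 to 10427416 on this chromosome, and miR-669f-3p at 10388918 to 10388934. The design also places miR-669n, whose probes list miR-669c-5p as well, in this stretch of chromosome 2. The only site of miR-466i-3p is on chromosome 13, from 17839390 to 17839407. For miR-669b-5p, counted among the 50, the design also lists sites on chromosomes 7 and 10 and at 169144440 to 169144456 on chromosome 2.

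The probes show what many members share. Each probe pairs with the 3′ part of its microRNA, so a run of alternating guanine and thymine in the probe matches a run of alternating cytosine and adenine in the RNA. The 2 arms of the miR-467c, miR-467e and miR-466i hairpins are given first, since the arms differed in these data, then 4 single members on which results turn; all are the longest probe of the array, 5′ to 3′, and capitals mark an alternating run of at least 8 bases.
miR-467c-5p: cacatatacatgcacgcac
miR-467c-3p: gtatagGTGTGTGTatgtata
miR-467e-5p: acatatacatgctcacact
miR-467e-3p: atatagGTGTGTGTatgtata
miR-466i-5p: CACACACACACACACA
miR-466i-3p: tagtgtgtaTGTGTGTGTG
miR-466f-3p: gtgtgtaTGTGTGTGTG
miR-466g: TGTGTGTGcatgtgtc
miR-669f-3p: atacGTGTGTGTGTatgt
miR-466n-3p: tctatgtatgctctcatgtat
An alternating guanine and thymine run of at least 8 bases was found in the longest probe of 17 of the 1881 names, or 0.904%, and all 17 were members. Of these, 13 were 3p arms and 4 had no arm in the name, and none was a 5p arm. The probes were searched as written, on 1 strand. The matching run of adenine and cytosine was in the probes of 13 names, of which 6 were members.

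RefSeq's table held the mature sequence of 7 members, all of them outside Sfmbt2, and the longest probe paired in full with the 3′ part of each, leaving 0 to 5 bases at the 5′ end unpaired. In miR-466k an alternating run of at least 8 bases covers the whole seed, and in miR-467g such a run begins at base 8. In the 4 below, such a run also reaches into the seed (bases 2 to 8, in capitals).
miR-466i-3p: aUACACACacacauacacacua
miR-467f: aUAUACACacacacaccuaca
miR-466q: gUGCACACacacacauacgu
miR-669n: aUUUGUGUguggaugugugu
The 7 mature sequences had 7 distinct seeds.

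The arrays were not alike in brightness. The 75th percentile of unscaled signal over the 299 probes detected on all arrays was 853 to 1128 scanner units on the EAM arrays, and 215, 533 and 138 on LAD arrays 1, 2 and 3. LAD arrays 1 and 3 thus stood apart, while the spiked-in control RNA was alike on all arrays, with a log10 signal of 4.33 to 4.49. All 6 lymphocyte markers were detected on every array, with a summed total signal of 41335 to 57247 in EAM and 2549 to 12456 in LAD. After quantile normalization they went different ways. miR-150-5p, miR-155-5p and miR-142a-3p were higher in EAM, by 1.41, 1.12 and 0.35 on the log2 scale (limma adjusted p = 0.0380, 0.0264 and 0.0341). miR-181a-5p was higher in LAD, at -3.18 (limma adjusted p = 0.0118), and miR-142a-5p and miR-342-3p did not pass. The 4 heart and muscle markers were detected on none. Of the 3 red cell markers, miR-451a was detected on every array and the other two on none, with a summed total signal of 50.2 to 94.1 in EAM and 9.88 to 32.3 in LAD. Of the 4 stroma and vessel markers, miR-126a-3p alone was detected, on 3 EAM and 2 LAD arrays, with summed totals of 0.40 to 11.5 and 0.40 to 13.2. The 3 epithelial markers summed to 22.5 to 35.6 in EAM and 0.30 to 2.93 in LAD. Of these, miR-203-3p was detected on 4 EAM and no LAD arrays and was higher in EAM (limma adjusted p = 0.00916), miR-200c-3p was detected on 4 EAM and 1 LAD arrays, and miR-205-5p on none. Of the 2 myeloid markers, miR-223-5p was detected on no array and miR-223-3p on every one. Their summed total signal overlapped between groups, at 58.3 to 67.4 in EAM and 24.9 to 75.2 in LAD. The quantile-normalized log2 signal of miR-223-3p was 6.43 to 6.73 on the EAM arrays and 9.19, 7.78 and 7.71 on LAD arrays 1 to 3. The part of the array brightness and of these markers in the members' differences was not tested, and fewer cells of a type and less RNA per cell cannot be told apart in these bulk samples.

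At least 1 array detected 48 of the 61 members, and all 7 detected 29. An array detected 36 to 44 members in EAM and 33 to 40 in LAD, a mean of 40.5 ± 3.42 (SD, n = 4) and 37.3 ± 3.79 (SD, n = 3). These ranges overlapped. The other 1820 names behaved otherwise, with 409 to 431 detected on an EAM array and 272 to 347 on a LAD array, ranges that did not overlap. The arms of the members differed in this respect. The EAM arrays detected 16 to 18 of the 25 5p members and the LAD arrays 12 to 14. Of the 26 3p members, EAM arrays 1 to 4 detected 19, 21, 15 and 17, and LAD arrays 1 to 3 detected 22, 15 and 22. The dimmest arrays, LAD 1 and LAD 3, therefore had the most 3p members.

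**Figure D1:**
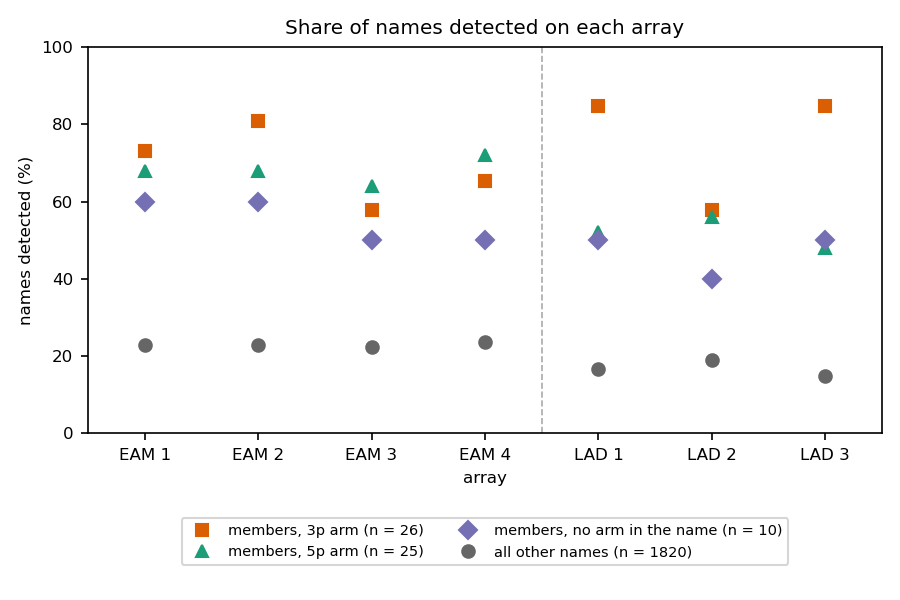
Share of names detected (vertical axis, %) on each of the 7 arrays (horizontal axis), as 1 point per array for the members by arm and for all other names; the dashed line parts the groups. The other names fall from 22.5 to 23.7% on EAM arrays to 14.9 to 19.1% on LAD arrays, the 5p members fall as well, and the 3p members stand at 84.6% on LAD arrays 1 and 3.

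Some members were detected by a pattern that crossed the groups. Exactly 3 of the 1881 names were detected on EAM arrays 1 and 2 and LAD arrays 1 and 3 and on no other, and all 3 were members, miR-467g, miR-669e-3p and miR-669h-3p. miR-467b-3p, miR-669d-3p and miR-669l-3p were detected on LAD arrays 1 and 3 alone, as were 25 names in all. The total signal of miR-467b-3p was 22.4 and 23.9 scanner units on these arrays, and it was not detected on the other 5. The remaining 5 members that were detected but did not meet the rule for testing were miR-466f-5p (3 EAM arrays), miR-466o-3p (2 EAM arrays), miR-669b-3p and miR-669m-3p (2 arrays in each group) and miR-669k-5p (1 EAM and 2 LAD arrays). Where detected, the total signal of these 11 members lay between 1.63 and 49.1 units, with both ends found on EAM arrays. The 13 members detected nowhere were miR-297b-5p, miR-466a-5p, miR-466d-5p, miR-466k, miR-466l-3p, miR-466l-5p, miR-466n-5p, miR-466p-5p, miR-467d-5p, miR-669g, miR-669i, miR-669j and miR-669k-3p. miR-466l, known for its effect on interleukin-10 messenger RNA in macrophages, thus gave no detected signal from either arm.

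The comparison of the models asks which microRNAs differ between CD4+ T cells responding to myocarditis and to infarction. The 5p and the 3p members moved apart after quantile normalization. Of the 37 members tested, 6 were higher in EAM and 10 higher in LAD, and 21 did not pass (limma, Benjamini-Hochberg adjusted p under 0.05 over the 423 microRNAs that 1 group or both had detected on each of its arrays). Over all 423, 59.8% passed, 36.2% higher in EAM and 23.6% higher in LAD. The groups did not overlap for 8 of the 37 members, beside 56.3% of all 423. The median difference, EAM minus LAD, was -0.20 on the log2 scale for the members and 0.31 over all 423. The rule for testing also let in names that 1 group did not detect at all, 3 of the 37 members and 53 of the 423. Over the 251 names detected on all arrays, the median was -0.09, and it was -0.50 for the 29 members among them. Among the 16 tested 5p members, 5 were higher in EAM and none in LAD, with a median of 0.46. That median became -0.10, over the 13 of them kept in that fit, when arrays were scaled to the 75th percentile of commonly detected probes. Among the 16 tested 3p members, 1 was higher in EAM and 8 in LAD, with a median of -1.01 that became 0.22 without scaling between arrays. Of the 5 members with no arm in the name, 2 were higher in LAD.

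**Figure D2:**
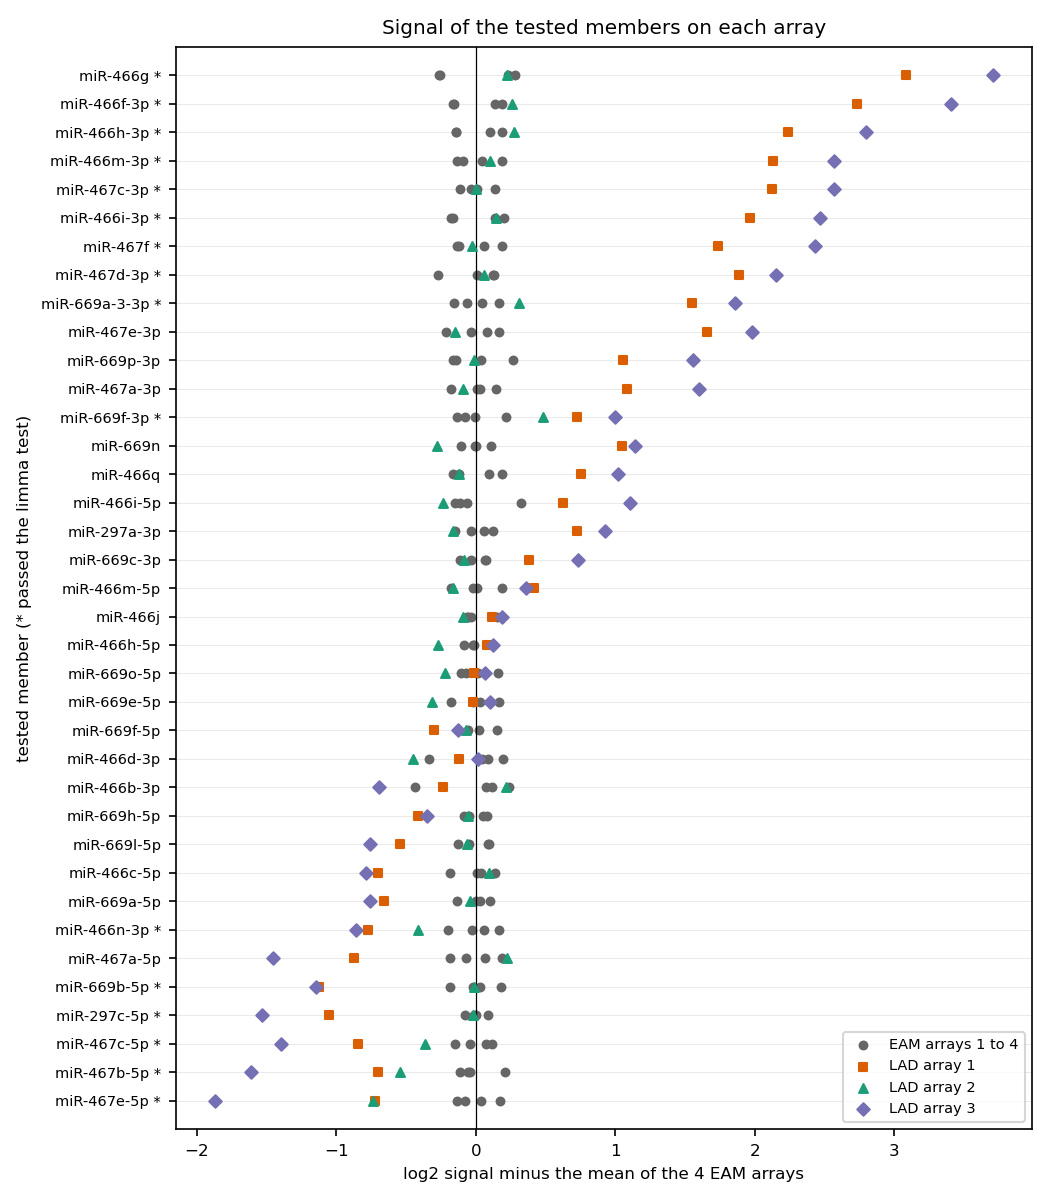
Normalized log2 signal of each of the 37 tested members (rows) on each array, drawn as the distance from the mean of the 4 EAM arrays (horizontal axis, log2); points are single arrays and asterisks mark members that passed the limma test. LAD arrays 1 and 3 lie far to the right for miR-466g and to the left for miR-467e-5p, while LAD array 2 lies near the EAM arrays for most members.

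The levels in the next paragraphs are quantile-normalized log2 signals, and levels of different members are not compared, since each rests on its own probes. Among the 5p arms, miR-467e-5p had the largest difference. Its signal was 8.15, 8.46, 8.20 and 8.32 on EAM arrays 1 to 4 and 7.56, 7.55 and 6.41 on LAD arrays 1 to 3. Every LAD array lay below every EAM array. It was 2.15-fold higher in EAM (log2 difference 1.11, SE 0.29; limma adjusted p = 0.0187). miR-467b-5p, reported in macrophages as a regulator of lipoprotein lipase, gave 8.26, 8.51, 8.19 and 8.24 in EAM and 7.60, 7.76 and 6.69 in LAD, again without overlap, and was 1.93-fold higher in EAM (limma adjusted p = 0.0207). miR-467c-5p gave 6.71, 6.93, 6.82 and 6.97 in EAM and 6.01, 6.50 and 5.47 in LAD, without overlap, a 1.83-fold difference (limma adjusted p = 0.0204). The probes of these 3 miR-467 members resemble one another, so they are not fully separate measurements.

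For the other 5p members that passed, LAD array 2 lay among the EAM arrays. miR-297c-5p gave 6.79, 6.80, 6.72 and 6.89 in EAM and 5.75, 6.78 and 5.27 in LAD, and was 1.82-fold higher in EAM (limma adjusted p = 0.0479). miR-669b-5p, whose probes also list miR-297a-5p and miR-466f, gave 6.09, 6.26, 6.30 and 6.46 in EAM and 5.16, 6.26 and 5.13 in LAD, 1.69-fold higher in EAM (limma adjusted p = 0.048). In both cases the difference came from LAD arrays 1 and 3. The 11 5p members that did not pass were miR-466c-5p, miR-466h-5p, miR-466i-5p, miR-466m-5p, miR-467a-5p, miR-669a-5p, miR-669e-5p, miR-669f-5p, miR-669h-5p, miR-669l-5p and miR-669o-5p. Their differences ran from -0.50 for miR-466i-5p to 0.70 for miR-467a-5p. miR-466h-5p, known for a role in cell death on nutrient loss, differed by 0.02 (SE 0.14).

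miR-466i-5p, whose probe is a run of cytosine and adenine alone, gave 10.27, 9.88, 9.79 and 9.83 in EAM and 10.57, 9.71 and 11.05 in LAD. The groups overlapped, and the difference did not pass (limma adjusted p = 0.176). miR-669h-5p had a detected signal on the 4 EAM arrays and on none of the LAD arrays. On the quantile-normalized values this gives a lower bound of 1.09-fold higher in EAM. The bound sets the mean of the EAM arrays against, on each LAD array, the higher of the member's own signal and the lowest detected signal. The measured means of miR-669h-5p were 4.56 in EAM and 4.28 in LAD, and the difference did not pass (limma adjusted p = 0.104).

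Among the 3p arms and the members without an arm in the name, those higher in LAD shared 1 pattern of arrays. miR-466g gave 5.62, 5.68, 5.13 and 5.14 in EAM and 8.48, 5.62 and 9.10 in LAD. LAD arrays 1 and 3 were far above all EAM arrays, and LAD array 2 lay among them. The mean was 5.06-fold higher in LAD (log2 difference -2.34, SE 0.75; limma adjusted p = 0.0325). miR-466f-3p gave 5.89, 5.94, 5.60 and 5.59 in EAM and 8.49, 6.02 and 9.16 in LAD, 4.39-fold higher (limma adjusted p = 0.0297). miR-466h-3p gave 6.69, 6.60, 6.36 and 6.36 in EAM and 8.74, 6.78 and 9.30 in LAD, 3.41-fold higher (limma adjusted p = 0.0277). For these 2, LAD array 2 was just above the highest EAM array.

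The remaining miR-466 and miR-467 members higher in LAD had the same order of LAD arrays, with array 3 highest and array 2 lowest. miR-466m-3p gave 4.77, 4.91, 4.59 and 4.63 in EAM and 6.86, 4.83 and 7.29 in LAD, 3.03-fold higher (limma adjusted p = 0.0352). EAM arrays 3 and 4 did not detect it, so this fold is partly set against undetected signal. It met the rule for testing through LAD alone, the group where it was higher. miR-467c-3p gave 5.13, 5.30, 5.05 and 5.18 in EAM and 7.29, 5.17 and 7.73 in LAD, 2.96-fold higher (limma adjusted p = 0.0412). The 5p arm of this hairpin, above, went the other way. miR-466i-3p, on chromosome 13, gave 6.59, 6.53, 6.21 and 6.23 in EAM and 8.35, 6.54 and 8.86 in LAD, 2.88-fold higher (limma adjusted p = 0.0341). miR-467f, which RefSeq places outside Sfmbt2, gave 7.06, 6.93, 6.74 and 6.75 in EAM and 8.61, 6.85 and 9.30 in LAD, 2.60-fold higher (limma adjusted p = 0.0479). For these members, miR-466m-3p, miR-467c-3p, miR-466i-3p and miR-467f, and for miR-467d-3p, LAD array 2 lay within the range of the EAM arrays. miR-467d-3p gave 6.08, 6.48, 6.36 and 6.47 in EAM and 8.23, 6.40 and 8.50 in LAD, 2.58-fold higher (limma adjusted p = 0.0385).

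For the miR-669 3p arms that passed, all LAD arrays lay above all EAM arrays. miR-669a-3-3p belongs to the miR-669a genes, known from work on heart progenitor cells as brakes on skeletal muscle differentiation. It gave 4.76, 5.09, 4.86 and 4.97 in EAM and 6.47, 5.23 and 6.78 in LAD, 2.36-fold higher in LAD (limma adjusted p = 0.0216). miR-669f-3p, whose probes also list miR-669a-3p and miR-669o-3p, gave 7.44, 7.79, 7.50 and 7.57 in EAM and 8.30, 8.06 and 8.57 in LAD. It was 1.66-fold higher in LAD (log2 difference -0.73, SE 0.16; limma adjusted p = 0.0137), a smaller difference than most but with a LAD SD of 0.26.

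miR-466n-3p was the only 3p arm higher in EAM. It gave 4.93, 5.19, 5.11 and 5.30 in EAM and 4.36, 4.72 and 4.27 in LAD, where no array detected it (limma adjusted p = 0.0142). It met the rule for testing through its detection in EAM alone, the group where it was higher. The call and the bound below are thus not independent of the filter. By the bound described for miR-669h-5p, it was at least 1.55-fold higher in EAM on these quantile-normalized values only. On 7 other sets of values its log2 difference ran from 0.26 to 5.57. Total gene signal, 1 of these sets, was 0.1 units on every LAD array for miR-466n-3p. This is the value given to an undetected name, so the member's difference there was not a measured one. Its probe, shown above, has no guanine and thymine run longer than 3 bases. miR-466j likewise had a detected signal in EAM only, but its measured means, 4.84 and 4.91, give no fold.

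The 3p members and those with no arm in the name that did not pass were mostly displaced in the same way. miR-467a-3p gave 8.22, 8.54, 8.43 and 8.41 in EAM and 9.49, 8.31 and 9.998 in LAD (limma adjusted p = 0.0669). miR-669n gave 7.41, 7.52, 7.31 and 7.41 in EAM and 8.46, 7.14 and 8.55 in LAD (limma adjusted p = 0.121). In both, LAD array 2 was on the other side of the EAM mean from LAD arrays 1 and 3. The rest were miR-297a-3p, miR-467e-3p, miR-669c-3p, miR-669p-3p and miR-466q, with differences of -1.16 to -0.34, and miR-466b-3p and miR-466d-3p, with 0.24 and 0.18.

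The repeat in the probe and the arrays' order went together. All 14 tested members with a guanine and thymine run of at least 8 bases had a negative difference, from -2.34 to -0.34, and 9 passed the test as higher in LAD, beside 23.6% of all tested. On LAD array 1 and on LAD array 3, all 14 were above all 4 EAM arrays, and all 14 had their lowest LAD value on array 2. By median they stood 1.70 and 2.06 above the EAM mean on LAD arrays 1 and 3, and 0.03 above it on LAD array 2. The 386 tested names outside the families had medians of -0.41, -0.04 and -0.50 on LAD arrays 1, 2 and 3. The 19 tested members with neither kind of run had 6 higher in EAM and 1 higher in LAD, and a median difference of 0.27. No name outside the families has such a guanine and thymine probe, so a like set cannot be set beside these 14. Of the 6 tested names outside the families with an adenine and cytosine run, all had a negative difference and 3 passed as higher in LAD. The 4 tested members with such a run had 2 positive and 2 negative differences, and none passed.

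Across the 37 tested members, the difference correlated with the length of the longest alternating guanine and thymine run at Pearson's r = -0.70, and with the share of guanine and thymine in the probe at -0.69. The points share the same 7 arrays, and several share near-identical probes. Of the 14 members with a run of at least 8 bases, 11 were 3p arms and 3 had no arm in the name. The 5 tested 3p members without such a run went both ways, at -1.60 for miR-466m-3p, -0.50 for miR-297a-3p, 0.18 for miR-466d-3p, 0.24 for miR-466b-3p and 0.68 for miR-466n-3p. No 5p member had such a run.

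**Figure D3:**
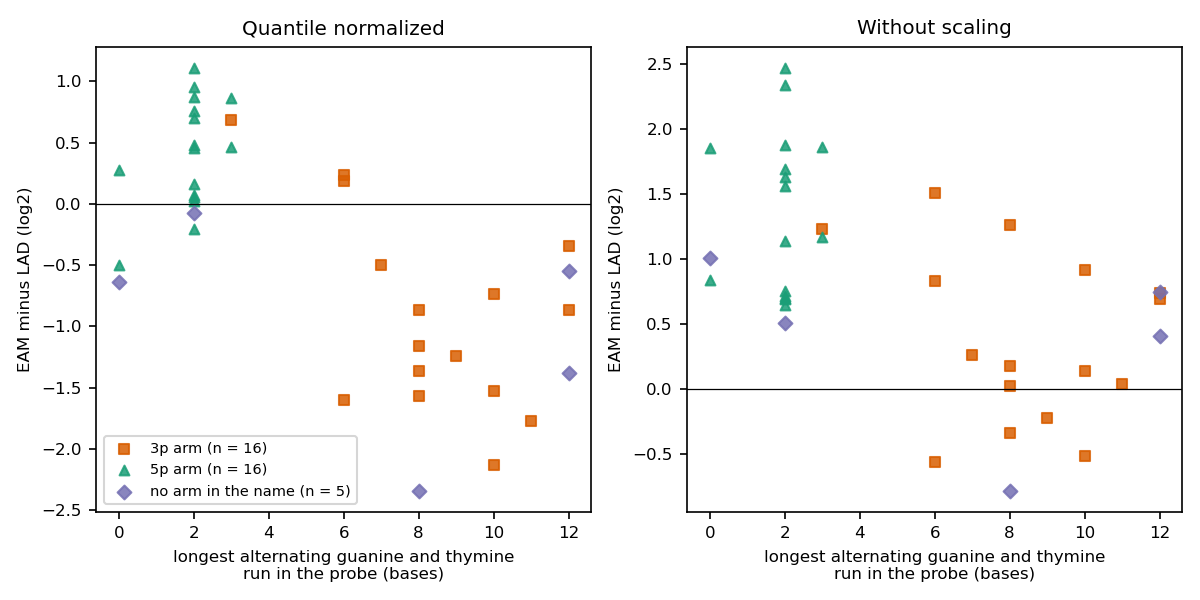
Difference of each of the 37 tested members, EAM minus LAD (vertical axis, log2), against the longest alternating guanine and thymine run in its longest probe (horizontal axis, bases), after quantile normalization (left) and without scaling between arrays (right; the vertical axes differ); each point is a member, marked by arm. The 5p members have runs of 0 to 3 bases; the members with runs of 8 or more all lie below 0 on the left, and 10 of these 14 lie above 0 on the right.

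The direction of these differences depended on how the arrays were put on 1 scale. Without scaling, the median over all 423 rose from 0.31 to 1.17, and 70.7% passed as higher in EAM and 0.473% as higher in LAD. Of the members, 26 were then higher in EAM and none in LAD, all 16 tested 5p members among the 26. The median was 1.37 for the 5p members and 0.22 for the 3p members. Unscaled, miR-466g gave 6.18, 5.98, 5.18 and 5.27 in EAM and 6.96, 5.37 and 6.98 in LAD, so it stayed highest on LAD arrays 1 and 3. miR-467e-5p gave 8.59, 8.99, 8.49 and 8.99 in EAM and 6.34, 7.28 and 5.27 in LAD, lowest on the dimmest array. miR-669f-3p turned from 1.66-fold higher in LAD to a difference of 0.92 on the log2 scale in favour of EAM, and its unscaled values were lowest on LAD arrays 3 and 1, at 6.68 and 6.86. The members with a negative unscaled difference were miR-466f-3p, miR-466g, miR-466m-3p, miR-467c-3p and miR-669a-3-3p. With median centring, 15 members were higher in EAM and 2 in LAD, beside 62.2% and 13.0% of all tested. When arrays were scaled to the 75th percentile of the probes detected on all arrays, none was higher in EAM and 1 was higher in LAD, beside 8.28% and 2.55%. On the log2 values of the authors' deposited table, 4 members were higher in EAM and 9 in LAD, beside 35.2% and 21.5%. The 5p median lay above the 3p median in each of these settings. A factor common to all probes of an array leaves the difference between these medians unchanged only where signals stand well above background. Some members did not, such as miR-669h-5p, detected on no LAD array. The part of array brightness in the difference between the arms was not tested.

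Most of the calls did not hold when any 1 array other than LAD array 2 was left out. Without LAD array 1, 4 members were higher in EAM and 1 in LAD, beside 18.9% and 15.8% of all tested. Without LAD array 3, the counts were again 4 and 1, beside 15.4% and 13.9%. Without LAD array 2, they were 11 and 19, beside 54.8% and 26.5%. With LAD arrays 1 and 3 both left out, LAD array 2 alone was set against the 4 EAM arrays, assuming that it varies as they do. Then miR-467b-5p and miR-467e-5p were higher in EAM, by 0.54 and 0.73 (limma adjusted p = 0.0223 and 0.00648), and miR-669f-3p was higher in LAD, at -0.48 (limma adjusted p = 0.0355), beside 18.2% and 22.5% of all 423. No other member passed there, and the medians were 0.12 for 5p and -0.03 for 3p. Each EAM array left out in turn gave 0 to 3 members higher in EAM and 1 or 2 higher in LAD, beside 41 to 74 and 34 to 52 of all 423. The SD was larger among the LAD arrays for 36 of the 37 tested members and for 398 of all 423, and a test without equal variances passed no member (2 at an unadjusted p under 0.05). miR-669f-3p passed in all 7 fits that left out 1 array, and miR-466n-3p in 6 of 7. The latter was detected on EAM arrays only, and met the rule for testing through them.

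In the difference between the arms of 1 hairpin within an array, a factor common to all probes of the array cancels where both signals stand well above background. Of the 18 hairpins with both arms on the array, 7 had both tested. In 6 of them, the unscaled 5p minus 3p log2 difference was higher in EAM. For miR-467e it was 3.10 ± 0.16 in EAM (SD, n = 4) and 0.66 ± 1.39 in LAD (SD, n = 3). For miR-467c it was 1.84 ± 0.17 and -0.38 ± 1.38. Groups did not overlap for miR-466i, miR-466m, miR-467c and miR-467e, 4 of the 7. Among the 40 hairpins outside the families with both arms tested, 57.5% had EAM above LAD without overlap, and the median shift was 0.72 (range -3.22 to 2.73). On the unscaled values, the share in the families was thus near that of other hairpins. Quantile normalization, which is not a common factor, changed these differences. With it, 6 of the 7 had EAM above LAD without overlap, beside 37.5% of the 40 other hairpins. The shift of miR-669f turned from -0.20 to 0.90, and that of miR-466h went from 0.65 to 1.79. These are differences of probe signals, not ratios of molecules.

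**Figure D4:**
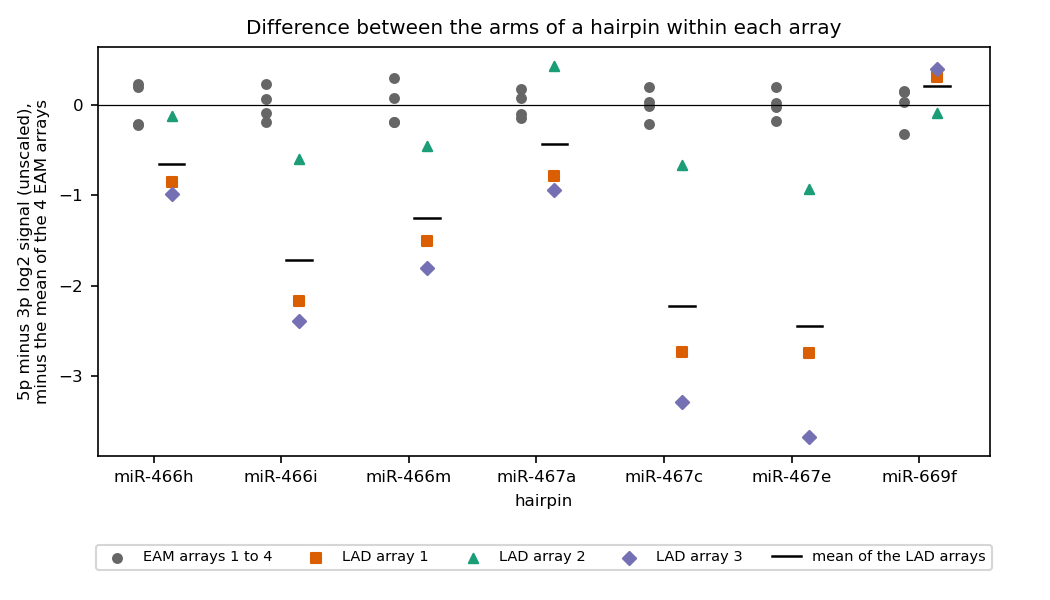
Unscaled 5p minus 3p log2 signal within each array for the 7 hairpins with both arms tested (horizontal axis), drawn as the distance from the mean of the 4 EAM arrays (vertical axis, log2); points are arrays and black bars the mean of the 3 LAD arrays. For miR-467e the LAD mean lies 2.45 below the EAM mean, and LAD array 2 is the nearest to the EAM arrays in each of the 4 hairpins whose groups do not overlap.

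By place in the genome, the tested members that RefSeq puts outside Sfmbt2 all had negative differences after quantile normalization. Of the 29 tested members within Sfmbt2, 6 were higher in EAM and 7 in LAD; 17 differences were positive and 12 negative, with a median of 0.08. Of the 6 tested members outside it, none was higher in EAM and 2 were higher in LAD; all 6 differences were negative, with a median of -0.59, and all were positive without scaling between arrays, with a median of 0.63. The contrast of places was not tested, and these 6 hold 3 of the 14 members with a guanine and thymine repeat. They also hold miR-466i-5p and miR-669n, whose probes have an adenine and cytosine run. Another of them, miR-466j, was detected on 4 EAM arrays and no LAD array, so its -0.07 does not show a higher level in LAD. The array design places miR-669n in the stretch of chromosome 2 that holds most members' sites, so its place is not settled. By family, miR-466 had 1 higher in EAM and 5 in LAD of 14 tested, miR-467 had 3 and 3 of 9, miR-669 had 1 and 2 of 12, and miR-297 had 1 and none of 2. In every family with several tested members of both arms, the 5p median was above the 3p median: -0.09 and -1.53 in miR-466, 0.91 and -1.26 in miR-467, and 0.27 and -0.80 in miR-669.

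Other lists give a measure of what was usual. The imprinted Dlk1-Dio3 region has 112 names on the array, of which 11 were detected and 7 tested, with 1 higher in EAM, 4 higher in LAD and a median of -0.71. Names outside the families whose RefSeq mature sequence holds an alternating run of at least 8 bases had 4 higher in EAM and 3 in LAD of 10 tested, with a median of -0.26. The 353 tested names outside the families within the members' range of mean signal had 138 and 87, with a median of 0.37. The 5 tested microRNAs outside the families whose values over the 7 arrays were most like the mean of the 29 members detected on all arrays were miR-574-3p, miR-468-3p, miR-6348, miR-3082-5p and miR-207, with Pearson's r of 0.97 to 0.98 over 7 arrays. All 5 had negative differences, from -2.31 for miR-574-3p to -0.94 for miR-468-3p. This sign follows from how they were chosen, since that mean was itself highest on LAD arrays 1 and 3, at 7.18 and 7.28. The probe of miR-574-3p has a guanine and thymine run of 7 bases, and those of miR-6348 and miR-3082-5p have an adenine and cytosine run. Those of miR-468-3p and miR-207 have neither kind of run of at least 8 bases.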

How the data were processed

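Small RNA labelled with Cy3 was hybridised to Agilent 1-colour mouse miRNA arrays on 1 slide. Intensity in scanner units, detection marks and other marks per spot were deposited as written by Feature Extraction 10.7.3.1, per the file headers, with a design mapped to mm9. The authors also deposited a table of log2 values, 1 per name; RMA is named without a role in the submitters' processing notes, and it was used as an alternative. The headers give an effective spot size of 0.768 to 0.774 on EAM arrays and 0.6 on LAD arrays, which bears on total gene signal.

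Mean spot intensity was background-corrected (normexp, no offset), quantile normalized and put on the log2 scale. Replicate spots were reduced to their median without outlier spots, and probes of a name were combined by median polish. The test took the names that 1 group or both had detected on each of its arrays. It was run with limma 3.58.1 in R 4.3.3 (lmFit, eBayes, group only), with Benjamini-Hochberg adjustment; the script was checked on simulated data. The number of arrays limits the precision. Every tested member is named. Values on every array are given for members that passed and for the 6 with the highest mean signal. The members and lists were chosen with earlier results of these data known; the grouping by probe run, the comparison of arms within an array and the fit with LAD array 2 alone were chosen after seeing the data. Sequences are from the array files and RefSeq (GRCm38.p6).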

Additional observations from a re-analysis of the deposited data

Results flagged for a closer look

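In 1 case a single array stood far from the others of its group of 4 EAM arrays. The log2 signal of miR-466j was 4.99 on EAM array 4 and 4.78, 4.78 and 4.81 on EAM arrays 1 to 3, so that the gap to the nearest array was 0.873 of the whole range, above Dixon's critical value for 4 arrays. Chance alone gives about 1 such case in 20 groups, and 37 members were looked at. miR-466j was detected on no LAD array.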

How the results depend on the processing

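The counts below are those of members, and then of all tested microRNAs, as higher in EAM and higher in LAD; they were 6 and 10, and 153 and 100. Without background correction the members' counts were 4 and 8, and they were 4 and 9 on the authors' deposited values. Local background with an offset of 50 gave 4 and 5 members, and 127 and 88 of all. Taking each array's 75th percentile as its scale gave 14 and 2 members, and 233 and 78 of all; with that percentile over commonly detected probes it gave 0 and 1, and 26 and 8. Median centring gave 15 and 2, and 263 and 55. No scaling gave 26 and 0, and 299 and 2. Total gene signal gave 5 and 3 members, and 99 and 87 of all. Testing only microRNAs detected on all arrays gave 3 and 8 members, and 52 and 83 of all; no filter on dim microRNAs gave 5 and 2, and 239 and 206. An unequal-variance test passed 0 members and 0 of all in either direction, with 2 and 120 at an unadjusted p under 0.05. Array weights gave 12 and 19 members, and 232 and 115 of all. A fold of at least 2 left 1 and 9 members, and 32 and 29 of all. LAD array 2 alone gave 2 and 1 members, and 77 and 95 of all. Leaving out 1 array at a time gave 0 to 11 members higher in EAM and 1 to 19 in LAD, and 41 to 232 and 34 to 112 of all. The causes were not tested, except that leaving out LAD array 2 removes the array nearest to EAM.

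Groups share replicate numbers 1 to 3. The deviations of same-numbered arrays correlated at 0.198, -0.161 and -0.192, and those of differently numbered arrays at -0.385 to 0.336. These values show no pairing by number, but so few arrays cannot exclude it. With the replicate block, which drops EAM array 4, 0 members and 0 of all passed in either direction, with 16 and 180 at an unadjusted p under 0.05.

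Directions of single members turned as follows (EAM minus LAD, log2). No scaling gave miR-297a-3p 0.26, miR-466h-3p 0.041, miR-466i-3p 0.14, miR-466i-5p 1.86, miR-466j 0.51, miR-466m-5p 0.70, miR-466q 0.74, miR-467a-3p 1.26, miR-467d-3p 0.18, miR-467e-3p 0.021, miR-467f 0.40, miR-669c-3p 0.74, miR-669f-3p 0.92, miR-669n 1.01 and miR-669p-3p 0.69. Median centring gave miR-466i-5p 1.38, miR-466j 0.026, miR-466m-5p 0.22, miR-466q 0.26, miR-467a-3p 0.78, miR-669c-3p 0.26, miR-669f-3p 0.44, miR-669n 0.53 and miR-669p-3p 0.21. The 75th percentile as scale gave miR-466i-5p 1.30, miR-466m-5p 0.14, miR-466q 0.18, miR-467a-3p 0.70, miR-669c-3p 0.18, miR-669f-3p 0.36, miR-669n 0.45 and miR-669p-3p 0.13. That percentile over commonly detected probes gave miR-297c-5p -0.091, miR-466b-3p -0.44, miR-466c-5p -0.013, miR-466d-3p -0.14, miR-466h-5p -0.20, miR-467a-5p -0.26, miR-467c-5p -0.073, miR-669b-5p -0.12, miR-669e-5p -0.16, miR-669l-5p -0.39 and miR-669o-5p -0.095. LAD array 2 alone gave miR-297a-3p 0.17, miR-466b-3p -0.21, miR-466c-5p -0.095, miR-466i-5p 0.23, miR-466j 0.093, miR-466m-5p 0.16, miR-466q 0.12, miR-467a-3p 0.090, miR-467a-5p -0.22, miR-467e-3p 0.15, miR-467f 0.024, miR-669c-3p 0.086, miR-669n 0.28 and miR-669p-3p 0.015. Total gene signal gave miR-466j 3.22, which is not a measured difference, since its total was 0.1 units, the value of an undetected name, on every LAD array. miR-466h-5p gave -0.057 with array weights, -0.018 with the replicate block and without EAM array 4, and -0.10 without LAD array 2; over all fits without 1 array it ran from -0.10 to 0.094, the positive end keeping its direction. Without LAD array 2, miR-669e-5p gave -0.042 and miR-669o-5p -0.028.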
